A study of Mus musculus with 15 samples.

Results

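The 10 genes described here encode the proteins that release calcium from the sarcoplasmic reticulum of skeletal muscle, store it, buffer it and pump it back. They were chosen by name: Cacna1s, Ryr1, Jph1, Casq1 and Casq2 on the release and storage side, and Atp2a1, Atp2a2, Sln, Pln and Pvalb on the reuptake and buffering side. Each symbol matched 1 Ensembl gene of the count table, so the members were 10 of 55450 genes, and all 10 passed the filter on low counts that left 16920 genes for testing. RNA was sequenced from gastrocnemius muscle of 15 female C57BL/6JN mice aged over 17 months, taken from 1 pulverized muscle per mouse. The mice fell into 4 groups by frailty and running. Low mice were positive for at most 1 of 5 frailty markers, namely treadmill distance, grip strength, rotarod latency, body weight and a frailty index, and High mice were positive for 2 or more. Run mice completed 2 downhill treadmill sessions on consecutive days at 13 m/min on a 22 degree decline and were sampled 24 h after the second, while Control mice stayed sedentary in their cages. Each group held 4 mice except High Control, which held 3. The labels name no genetic change or drug, frailty was assigned from measurements and not by an intervention, and each mouse gave 1 library.

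In a muscle fiber, an action potential travels down the transverse tubule and moves the voltage sensor of the L-type calcium channel, whose pore-forming subunit is encoded by Cacna1s. That subunit touches the ryanodine receptor, encoded by Ryr1, which opens and lets calcium out of the sarcoplasmic reticulum, where calsequestrin holds it. The fiber relaxes when calcium binds parvalbumin in the cytosol and is pumped back by SERCA, an ATPase that small membrane peptides such as sarcolipin and phospholamban inhibit. Fast fibers use mainly the SERCA1, calsequestrin-1 and parvalbumin genes, whereas slow fibers and heart muscle use more of the SERCA2, calsequestrin-2 and phospholamban genes.

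Library totals ran from 19395125 to 30699216 assigned counts, with a median of 25926420, and the 10 members together took between 4.68% and 6.25% of each library. The tissue label was checked with 5 skeletal muscle markers (Ckm, Acta1, Ttn, Des and Myh4), which summed to between 90862 and 150407 CPM (counts scaled to a common library total), and of 6 heart markers, Nppa, Nppb and Myl7 had at most 3 counts in any mouse. The other heart markers were detected, Myl4 at 104 to 1042 counts, Myh6 at 15 to 187 and Ryr2 at 4 to 36, and their part in the members' values was not tested. Of these 15 libraries, Low Control mouse D9 and High Run mouse D62 stood apart. Principal components were taken from the deposited variance-stabilized values of all genes that varied between mice, including genes that did not pass the filter. On the first, which held 26% of the variance, D9 was at -76.0 and D62 at -49.3, and the other 13 mice lay between -14.4 and 19.7. Since both are the lowest mice for Casq1 and Pvalb, results that rest on them are given with and without them.

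Compared per length of exon, the fast-fiber genes led. Atp2a1, the SERCA1 pump, averaged 11279 ± 1566 CPM per kb (SD, n = 15), Pvalb 6389 ± 1896 and Casq1 1137 ± 396. Next came the release machinery, with Ryr1 at 219 ± 49.96 CPM per kb, Cacna1s at 185 ± 32.4 and Jph1 at 92.3 ± 17.7, the last of these after Atp2a2 at 102 ± 23.02. The lowest were Sln at 23.4 ± 23.7 CPM per kb, Casq2 at 18.2 ± 5.11 and Pln at 1.07 ± 0.275. Along this order, the ranges over mice did not overlap between Pvalb and Casq1, between Casq1 and Ryr1, or between Casq2 and Pln. Neighbors that changed places in single mice were Ryr1 and Cacna1s in 2 of 15 mice, Atp2a2 and Jph1 in 6, Jph1 and Sln in 1, and Sln and Casq2 in 8, so the order of these pairs is not set beyond the spread between mice. On the same per-kb scale, Ryr1 stood to Cacna1s at 1.19 ± 0.234 to 1 within a mouse. Atp2a2 made up 0.906 ± 0.231% of the Atp2a1 and Atp2a2 sum, and Casq2 made up 1.84 ± 1.12% of the Casq1 and Casq2 sum. In bulk RNA, fewer fibers of a type and less RNA per fiber cannot be told apart.

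**Figure D1:**
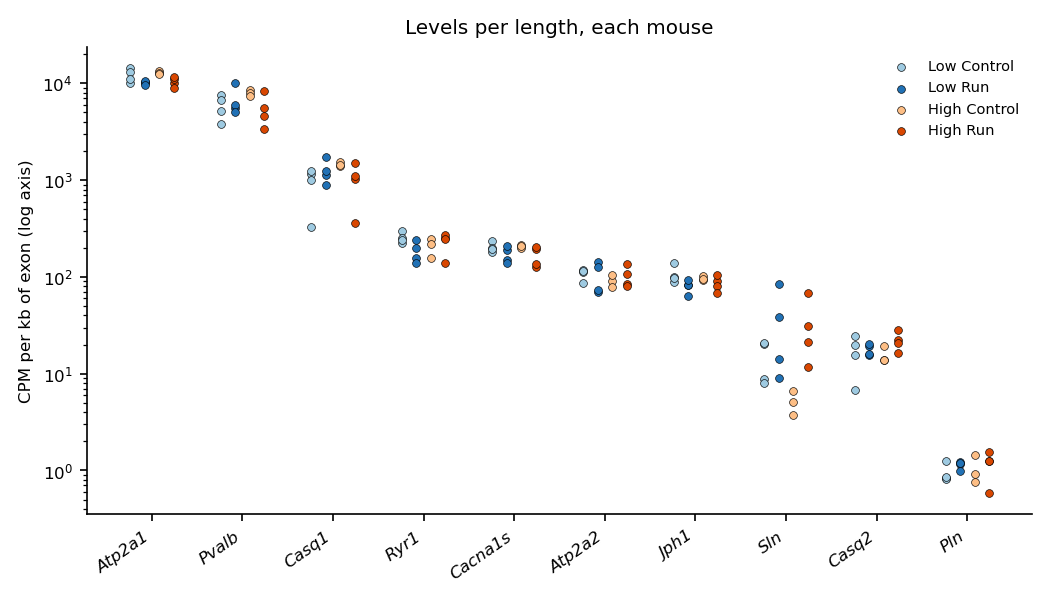
Level per length of each gene in each of the 15 mice, as CPM per kb of exon on a log axis, colored by group and ordered by mean. The genes span from 11279 for Atp2a1 to 1.07 for Pln, and Sln has the widest scatter, from 3.78 to 84.4.

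The voltage sensor Cacna1s (chr1:136052750-136119822, plus strand; all gene positions are on GRCm38) had a narrow range of levels. Its CPM was 1550.5, 1196, 1294 and 1268 in the 4 Low Control mice and 979.8, 1243, 1351 and 909.2 in the 4 Low Run mice. It was 1414, 1306 and 1356 in the 3 High Control mice and 1262, 1345, 835 and 888 in the 4 High Run mice. The 4 lowest of the 15 mice were all runners, but both running groups also held mice at control levels and overlapped their controls. The difference was -0.24 on the log2 scale (SE 0.17) in Low mice and -0.33 (SE 0.19) in High mice, with unadjusted edgeR p-values of 0.180 and 0.0982.

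The release channel Ryr1 (chr7:29003344-29125179, minus strand) has the longest coding sequence of these genes. Low Control mice had 6510.2, 5551, 4876 and 5307 CPM, against 3409, 4341, 5252 and 3027 in Low Run mice, where 3 of 4 lay under every Low Control mouse. High Control mice had 5436, 4793 and 3421 CPM and High Run mice 5535, 5870 (D52), 3040 (D53) and 5382, so these 2 groups overlapped fully. The Low difference was -0.47 (SE 0.22) with an unadjusted p of 0.0482 and an edgeR adjusted p of 0.368, and the High difference was 0.12 (SE 0.24) with an edgeR adjusted p of 0.976. Whether running differed by frailty was tested directly, and the Frailty x Run interaction for Ryr1 was 0.60 (SE 0.33, unadjusted p = 0.0858, edgeR adjusted p = 0.600). With offsets for gene length and GC content, the Low difference was -0.21 (unadjusted p = 0.163) and the interaction 0.25 (unadjusted p = 0.252). The fitted length and GC term of Ryr1 was lowest in D57 (-0.47), D68 (-0.54) and D53 (-0.46), the 3 mice with little Ryr1 among the runners, and its part in the result was not tested.

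Jph1 (chr1:16964560-17097889, minus strand) encodes junctophilin-1, which ties the transverse tubule to the sarcoplasmic reticulum. It measured 494, 700.5, 447 and 483 CPM in Low Control mice and 415, 416, 464 and 317 in Low Run mice. In High Control mice it was 515, 467 and 478 CPM, and in High Run mice 456, 403, 338 and 524. The highest Low Control value was that of D9, and the groups overlapped in both frailty classes. The Low difference of -0.40 (SE 0.17) had an unadjusted p of 0.0334 and an edgeR adjusted p of 0.359, and it was -0.25 without D9 and D62 (unadjusted p = 0.0972). In High mice the difference was -0.18 (SE 0.18, edgeR adjusted p = 0.965).

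Calsequestrin is the calcium-binding protein of the sarcoplasmic reticulum, and its fast-fiber form Casq1 (chr1:172209894-172219868, minus strand) had 2 mice far below the rest. Low Control mice had 2244, 640.0 (D9), 1941 and 2398 CPM, and Low Run mice 3415 (D57), 2184, 2396 and 1734. High Control mice were close together at 2735, 2990.5 and 2821 CPM, whereas High Run mice had 1994, 2165, 2915 and 698 (D62). All 3 High Control values lay above all 4 Low Control values, a gap that 10.4% of the 16920 tested genes showed in one direction or the other and 5.13% showed upward. That difference was 0.66 (SE 0.42) with an unadjusted p of 0.135 and an edgeR adjusted p of 0.704, and it was 0.37 without D9 and D62 (unadjusted p = 0.0960). For running, Casq1 differed by 0.43 (SE 0.39) in Low mice and by -0.55 (SE 0.42) in High mice. Without D9 and D62 these values were 0.14 and -0.28, and the Frailty x Run interaction went from -0.98 (SE 0.57, edgeR adjusted p = 0.608) to -0.42 (edgeR adjusted p = 0.983).

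The slow and cardiac form Casq2 (chr3:102086415-102146514, plus strand) was far scarcer, at 42.8, 18.5 (D9), 53.8 and 67.7 CPM in Low Control and 43.1, 43.3, 53.4 and 55.2 CPM in Low Run mice. It was 52.6, 37.8 and 38.1 CPM in High Control and 45.3, 77.5, 60.8 and 56.8 CPM in High Run mice. In the High class, 3 of 4 running mice lay above all 3 controls. The difference there was 0.49 (SE 0.31, unadjusted p = 0.134, edgeR adjusted p = 0.956), and in Low mice it was 0.09 (SE 0.28, edgeR adjusted p = 0.897). The 2 calsequestrin coding sequences are 61.7% identical over their alignment and share no exact run longer than 25 bases.

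Atp2a1 (chr7:126445858-126463108, minus strand), the fast-fiber SERCA1 pump, was the most abundant member and the steadiest. Its mean coefficient of variation within groups was 8.68%, a value that only 4.33% of tested genes fell below, while the median of tested genes was 20.6%. Low Control mice had 49796, 45794, 34797 and 38162 CPM and Low Run mice 35432, 35851, 36981 and 33688. High Control mice had 46128, 44247 and 43187 CPM and High Run mice 34990.4, 38177, 30875 and 40132. All 4 High Run mice therefore lay below all 3 High Control mice, as 7.07% of tested genes did in either direction and 3.60% downward. In the Low class D11 at 34797 CPM closed the gap between the groups. The differences were -0.30 (SE 0.14, unadjusted p = 0.0518, edgeR adjusted p = 0.956) in High mice and -0.25 (SE 0.13, unadjusted p = 0.0848, edgeR adjusted p = 0.404) in Low mice. The mean of these running differences, a contrast added after the data were seen, was -0.28 (SE 0.10, 95% interval -0.49 to -0.07), a level 0.826 of control, with an unadjusted p of 0.0132 and an edgeR adjusted p of 0.474. Without D9 and D62 the High difference was -0.37 (edgeR adjusted p = 0.672), under an unadjusted p of 0.05, and the Low difference was -0.21.

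Atp2a2 (chr5:122453513-122502225, minus strand) encodes SERCA2, the slow-fiber and cardiac pump. It was 529, 677, 713 and 706 CPM in Low Control, 421, 863, 778 and 447 CPM in Low Run, 549.9, 635 and 479 CPM in High Control and 519, 651, 487 and 819.8 CPM in High Run mice. The 4 Low Run mice split into a pair above and a pair below the whole Low Control range. The running difference was -0.06 (SE 0.23, edgeR adjusted p = 0.915) in Low mice and 0.16 (SE 0.25, edgeR adjusted p = 0.973) in High mice, and the latter was -0.01 without D9 and D62. The Atp2a1 and Atp2a2 coding sequences are 71.3% identical with a longest exact shared run of 44 bases.

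SERCA is held back by small peptides that sit beside it in the membrane. GENCODE M21 places sarcolipin, Sln, at chr9:53850164-53854560 (plus strand) and phospholamban, Pln, at chr10:53337667-53345987 (plus strand). Their coding sequences, from the same annotation, are shown because they are short enough to read whole, with the start and stop codons in capitals. Sln has 31 codons before its stop and Pln has 52.
Sln: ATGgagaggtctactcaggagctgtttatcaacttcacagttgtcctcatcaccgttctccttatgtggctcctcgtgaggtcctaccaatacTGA
Pln: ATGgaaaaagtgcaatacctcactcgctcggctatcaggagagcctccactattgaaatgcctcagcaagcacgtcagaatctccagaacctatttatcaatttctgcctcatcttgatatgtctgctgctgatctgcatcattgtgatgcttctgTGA

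Sln was the member that varied most, with a mean coefficient of variation within groups of 61.1% that lay above that of 95.6% of tested genes, and the member with the largest difference after running in both classes. Low Control mice had 11.7, 10.6, 26.7 and 27.7 CPM, and Low Run mice 111 (D57), 18.6, 50.6 and 11.9. High Control mice had 6.72, 8.79 and 4.98 CPM, the 3 lowest values of all 15 mice, and High Run mice 28.2, 41.3, 15.6 and 88.8 (D62). The High Run and High Control mice did not overlap, a gap that 3.47% of tested genes showed upward, whereas in the Low class D61 and D68 lay within the range of their controls. In High mice the difference was 2.67 on the log2 scale (SE 0.73), or 6.35-fold (95% interval 2.17 to 18.6). Its unadjusted p of 0.00221 ranked 34th of 16920 genes, and its edgeR adjusted p was 0.956. Without D9 and D62 it was 2.04 (unadjusted p = 0.00825, edgeR adjusted p = 0.587).

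In Low mice the Sln difference was 1.33 (SE 0.62), or 2.51-fold (95% interval 1.01 to 6.22), with an unadjusted p of 0.0480 and an edgeR adjusted p of 0.368. It rested in part on D57, without which it was 0.49 (unadjusted p = 0.390). The Frailty x Run interaction was 1.34 (SE 0.91, unadjusted p = 0.162, edgeR adjusted p = 0.631), so a larger running difference in High than in Low mice was not shown. It was 2.17 without D57 (unadjusted p = 0.0187), 0.73 without D62 (unadjusted p = 0.407) and 1.69 with voom (unadjusted p = 0.0343), with adjusted p-values of 0.728, 0.866 and 0.461. Between controls, the High mice lay below all 4 Low mice with a difference of -1.49 (SE 0.70, unadjusted p = 0.0498, edgeR adjusted p = 0.704), a downward gap that 5.27% of tested genes showed. Between the running groups the difference was -0.15 (SE 0.60, edgeR adjusted p = 0.999). High Control mice enter both the running and the control comparison, so these 2 results share samples. The mean running difference, again added after the data were seen, was 2.00 (SE 0.48), or 3.99-fold (95% interval 1.98 to 8.03), with an unadjusted p of 0.000714 and an edgeR adjusted p of 0.413. Testing without a filter on low counts gave this mean an edgeR adjusted p of 0.00784 and the High difference 0.0606, and the DESeq2 Wald test gave the mean an adjusted p of 0.0577, all under the FDR of 0.1 set for calls. The call for Sln thus depends on the filter and the test.

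Relative to the pump it inhibits, Sln stood at 1.29 ± 0.782 per 1000 Atp2a1 on the per-kb scale in Low Control, 3.55 ± 3.37 in Low Run, 0.404 ± 0.111 in High Control and 3.04 ± 1.97 in High Run mice (SD, n = 3 or 4). The High Run mice ran from 1.33 to 5.84 and the High Control mice from 0.304 to 0.524. All High Run mice had more Sln and less Atp2a1 than every High Control mouse. The ratio therefore could not overlap, and its gap is no separate result. Pln was the scarcest member, with 39 counts in the lowest mouse. Its CPM was 2.30, 2.24, 2.39 and 3.47 in Low Control, 3.41, 3.21, 3.32 and 2.71 in Low Run, 4.02, 2.10 and 2.54 in High Control and 1.61, 3.44, 4.26 and 3.46 in High Run mice. Each group overlapped the others, and the running differences were 0.28 (SE 0.28, edgeR adjusted p = 0.633) in Low and 0.15 (SE 0.30, edgeR adjusted p = 0.977) in High mice. Pln lies inside Cep85l, which is on the opposite strand, and the counts were assigned by strand.

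**Figure D2:**
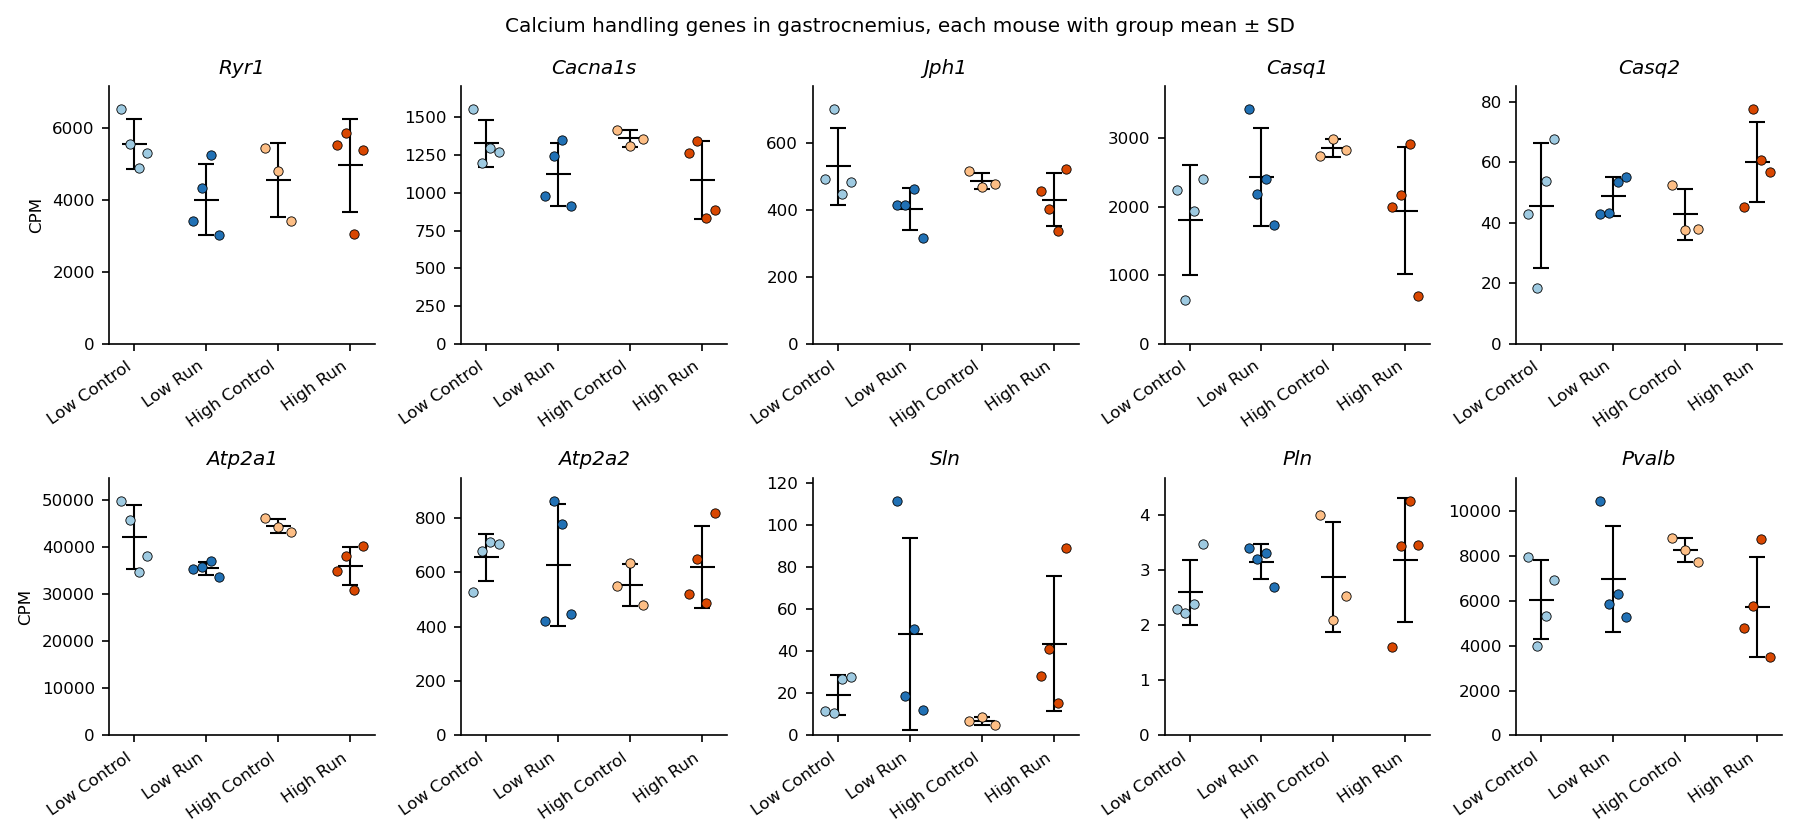
CPM of each of the 10 genes in each mouse (points) with the group mean and SD (bars), with 3 mice in High Control and 4 in each other group; each panel starts at 0 and has its own scale. Sln in High Run mice (15.6 to 88.8) and Atp2a1 in High Run mice (30875 to 40132) lie apart from their High Controls, and D9 and D62 are the low Casq1 points.

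Pvalb (chr15:78191114-78206400, minus strand) encodes parvalbumin, the soluble calcium buffer of fast fibers. Low Control mice had 7973, 3997 (D9), 5345 and 6922 CPM and Low Run mice 10462 (D57), 5843, 6293 and 5271. High Control mice had 8797, 8291 and 7719 CPM and High Run mice 4813, 5780.3, 8747 and 3518 (D62). In the High class, 3 of 4 running mice lay below the controls and D53 among them. The difference was -0.53 (SE 0.30, unadjusted p = 0.0924, edgeR adjusted p = 0.956) there and 0.20 (SE 0.28, edgeR adjusted p = 0.740) in Low mice. The interaction was -0.73 (SE 0.41, unadjusted p = 0.0903, edgeR adjusted p = 0.604), and it was -0.40 without D9 and D62, where the High difference was -0.37 and the Low difference 0.035.

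Pvalb and Casq1 varied together across mice more closely than any other pair of members. Over the 15 mice, their log2 CPM had a Pearson r of 0.885 and a Spearman rho of 0.936, and r was 0.913 over the 13 mice without D9 and D62. The next closest pairs without those mice were Cacna1s with Jph1 at 0.869 and Cacna1s with Ryr1 at 0.838, where all 15 mice gave 0.449 and 0.650. These are descriptions of 45 pairs that share libraries and groups. D9 and D62 were lowest in both Casq1 and Pvalb, and D57 was highest in both. Casq1 at a level of 640.0 and 698 CPM set these 2 mice far from the other 13, which ran from 1734 to 3415, although Atp2a1 in D9 and D62 was at 45794 and 40132, within the range of the rest.

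The 300 bases around the start of each of these co-varying genes (RefSeq, GRCm38.p6, 250 before to 50 after the start) are shown with matches to 2 motifs of muscle transcription factors in capitals. The motifs searched on both strands were the E-box CANNTG, found in 72.3% of 32851 mouse promoters of this length, and the MEF2 site, found in 3.19%. Casq1 (chr1:172219846-172220145, minus strand) holds E-boxes whose first bases are at -195 and -67 and no MEF2 match, and Pvalb (chr15:78206351-78206650, minus strand) holds a MEF2 match at -180 and no E-box. Pvalb has a second RefSeq entry (chr15:78204188-78204487, not printed), with E-boxes at -111 and 17 and no MEF2 match, and the entry shown is the one at the GENCODE gene start.
Casq1: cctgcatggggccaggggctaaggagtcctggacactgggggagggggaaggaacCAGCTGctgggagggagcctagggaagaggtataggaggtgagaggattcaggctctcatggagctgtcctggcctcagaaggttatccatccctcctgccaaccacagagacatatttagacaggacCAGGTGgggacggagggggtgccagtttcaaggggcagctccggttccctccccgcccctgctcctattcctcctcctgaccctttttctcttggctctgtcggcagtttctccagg
Pvalb: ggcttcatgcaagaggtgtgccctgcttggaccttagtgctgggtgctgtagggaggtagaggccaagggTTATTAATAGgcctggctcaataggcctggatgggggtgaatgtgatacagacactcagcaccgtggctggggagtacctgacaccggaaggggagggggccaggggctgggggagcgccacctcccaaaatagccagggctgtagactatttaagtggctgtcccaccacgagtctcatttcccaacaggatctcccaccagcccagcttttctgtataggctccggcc
A match describes the letters in this window only. A promoter entry was found for 7 of the 10 members, and Casq2 was the other one with a MEF2 match, at -69.

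**Figure D3:**
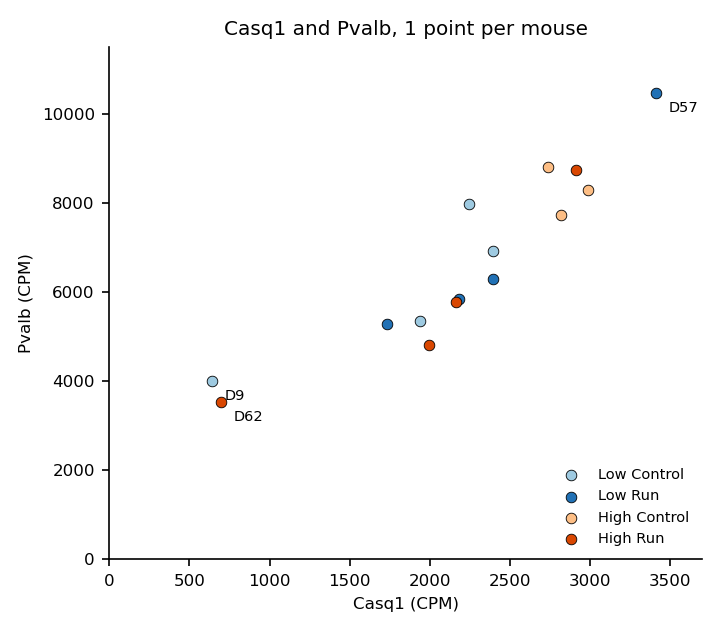
Pvalb against Casq1, both in CPM, 1 point per mouse colored by group. The 15 mice lie along 1 band (Pearson r of log2 values 0.885), with D9 and D62 at the low end and D57 at the high end.

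Taking the members as a list, none was called in any of 5 planned comparisons at an FDR of 0.1, where edgeR called 0 of 16920 genes (0%) in each. In Low Run against Low Control, 3 members had an unadjusted p under 0.05, beside 2274 genes or 13.4% of all tested. They were Sln upward, beside 5.92% of genes, and Ryr1 and Jph1 downward, beside 7.52%, and 0 members had groups that did not overlap, beside 6.93%. DESeq2 called 10 genes and limma voom 0 in this comparison, no member among them. Under an unadjusted p of 0.05 were Ryr1 and Jph1 with DESeq2, beside 2643 genes, and 0 members with voom, beside 1385. In High Run against High Control, edgeR put 1 member, Sln, under 0.05 beside 877 genes or 5.18% (3.28% upward). DESeq2 called 15 genes and voom 45, again no member. Under an unadjusted p of 0.05 with DESeq2 were Sln and Atp2a1, beside 1144 genes. With voom 5 members were (Casq1, Casq2, Atp2a1, Sln and Pvalb), beside 2300 of 16920 genes. Atp2a1 was also under it with RLE scaling, with length and GC offsets and, like Casq2, without D9 and D62. In High Control against Low Control, 1 member, again Sln, was under 0.05 beside 992 genes or 5.86% (4.06% downward), and in High Run against Low Run 0 members beside 424 genes or 2.51% (0 members without overlap, beside 1.5%), with 0 genes called by DESeq2 and by voom in both. For the interaction edgeR put 0 members under 0.05 beside 1342 genes or 7.93%, with 0 genes called by DESeq2 and voom. That count of members was also 0 with DESeq2, but it depended on the test. With voom 5 members were under 0.05 (Ryr1, Casq1, Casq2, Sln and Pvalb), beside 1760 of 16920 genes. Without a filter on low counts 3 were (Casq1, Sln and Pvalb), beside 2588 of 35419 genes. Without D9 and D62 edgeR put 1 member there (Casq2), beside 744 of 16920 genes. In edgeR, each of the 5 planned comparisons had 5 members with a positive and 5 with a negative difference. The median member differed by 0.01 in Low and -0.03 in High mice after running, against 0.02 and 0.05 for all tested genes.

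**Figure D4:**
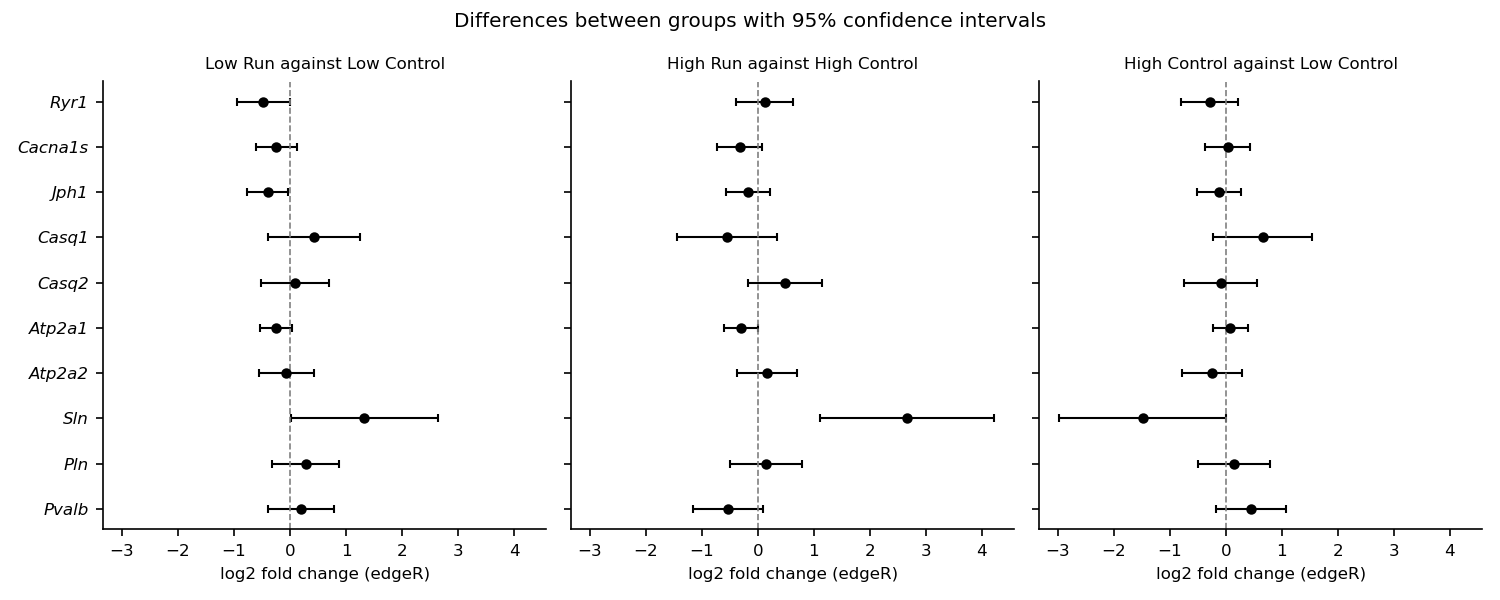
Log2 fold changes of the 10 genes with 95% confidence intervals from edgeR, for running in Low mice, running in High mice, and High against Low among controls. Sln lies farthest from 0 in all 3 panels, at 1.33, 2.67 and -1.49, and most other intervals include 0.

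The mean running difference, over both frailty classes, put 4 members under an unadjusted p of 0.05, beside 1461 genes or 8.63% (5.6% upward and 3.04% downward). Besides Sln and Atp2a1 these were Cacna1s at -0.29 (SE 0.13, unadjusted p = 0.0398) and Jph1 at -0.29 (SE 0.13, unadjusted p = 0.0353), each with an edgeR adjusted p of 0.555. Here edgeR called 0 of 16920 genes, DESeq2 106 with Sln among them, and voom 0. Sln was the only one of the 4 with a positive value, and Atp2a1, Cacna1s and Jph1 stood at 0.826, 0.820 and 0.818 of control.

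Since Atp2a2, Casq2, Pln and Sln are more strongly expressed in slow than in fast fibers, their levels were set against the summed CPM of 7 slow-fiber markers (Myh7, Myl2, Myl3, Tnnc1, Tnni1, Tnnt1 and Tpm3). That sum ran from 1566 in High Control mouse D67 to 4674 in High Run mouse D62, with group means of 2429.6 ± 454 in Low Control, 2806 ± 674 in Low Run, 2118 ± 487 in High Control and 3293 ± 1200 in High Run mice. On the log2 scale over 15 mice, Pearson's r was 0.567 for Atp2a2, 0.564 for Casq2, 0.583 for Pln and 0.415 for Sln, with permutation p-values adjusted over the 4 relations of 0.0366, 0.0366, 0.0366 and 0.124 (unadjusted 0.0275, 0.0222, 0.0217 and 0.124). Spearman's rho was 0.550, 0.679, 0.575 and 0.436, with adjusted permutation p-values of 0.0475, 0.0269, 0.0475 and 0.105. Leaving out D67 and D62, the 2 mice farthest from the median, gave r = 0.396 for Atp2a2 (permutation p = 0.177), 0.586 for Casq2, 0.616 for Pln and -0.00199 for Sln. Those mice are the ends of the marker range, and leaving them out narrows it. The drop for Atp2a2 therefore cannot show whether its relation rested on them. The relation of Sln was not seen without them. The adjusted p of Atp2a2, Casq2 and Pln was 0.0796 (permutation) without D9 and D62, and it passed 0.05 no longer when any 1 of 9, 8 and 9 of the 15 mice was left out, so these relations were marginal. That of Sln passed only without D57, where r was 0.659. The permutations paired mice freely across groups, so these p-values mix differences between groups with differences within them. Within groups, as deviations from group means, r was 0.635, 0.464, 0.590 and 0.116, and these values were not tested.

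All 7 slow-fiber markers had positive differences after running in both classes, with a median of 0.26 in Low and 0.65 in High mice, and 0 and 4 of them were under an unadjusted p of 0.05, beside 5.92% and 3.28% of all tested genes upward. None was called by edgeR. A second list, of 9 regeneration and denervation markers (Myh3, Myh8, Chrna1, Chrnd, Chrng, Ncam1, Myog, Myod1 and Runx1), also had mostly positive differences after running. In High Run against High Control, 9 of 9 were positive, 6 of them under an unadjusted p of 0.05 (beside 3.28% of all tested genes), with a median of 0.75. In Low Run against Low Control, 7 of 9 were positive with a median of 0.31 and 0 under 0.05, the interaction was positive for 8 of 9, and the mean running difference was positive for 9 of 9, 5 of them under 0.05 (beside 5.6%), with a median of 0.52. In High Run against High Control, embryonic myosin Myh3 was the clearest, at 19.0 ± 7.28 against 7.76 ± 3.47 CPM (difference 1.29, SE 0.32, unadjusted p = 0.00104, edgeR adjusted p = 0.956). In High Control against Low Control, 9 of 9 were negative, 3 of them under 0.05 (beside 4.06%), with a median of -0.48. The list's summed CPM was 83.2 to 135 in Low Control, 100.2 to 162 in Low Run, 66.2 to 99.9 in High Control and 118 to 172 in High Run mice, and D62, high in Sln, had the highest sum. The part of fiber type and of regenerating or denervated fibers in the Sln values was not tested.

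**Figure D5:**
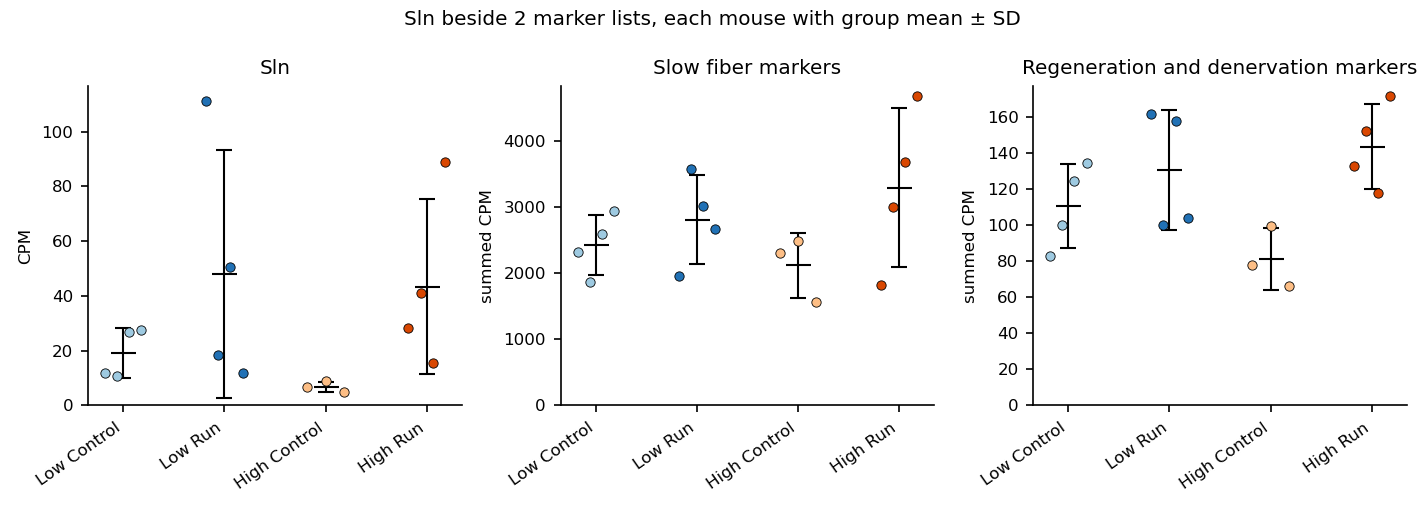
Sln CPM and the summed CPM of the slow-fiber markers and of the regeneration and denervation markers, per mouse with group mean and SD. High Run mice lie above High Control mice without overlap for Sln and for the regeneration and denervation markers (118 to 172 against 66.2 to 99.9), whereas the slow-fiber sums overlap. Of all tested genes, 3.47% showed such an upward gap, and the sums were not tested.

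Of 52 further calcium genes in 5 lists, all were tested and none was called by edgeR in any comparison. After running, 28 were positive and 24 negative in Low mice, with 2 upward and 1 downward under an unadjusted p of 0.05, beside 5.92% and 7.52% of all tested genes. In High mice 17 were positive and 35 negative, with 0 upward and 4 downward, beside 3.28% and 1.9%. Among 15 triad and release partners, the channel subunit Cacna2d1 differed by -0.37 (SE 0.14, unadjusted p = 0.0182) in High mice, from 410.5 ± 9.67 in High Control to 317 ± 60.4 CPM in High Run mice. Of 13 calcium sensors and calcineurin genes, 13 were negative in High mice, with a median of -0.19 against 0.05 for all tested genes. Downward under 0.05 were 2 of them, beside 1.9% of all tested genes. The list was not tested as a set. The calcineurin catalytic gene Ppp3cb had the smallest p of the 52 in both classes, at -0.34 (SE 0.11, unadjusted p = 0.00933, edgeR adjusted p = 0.956) in High mice and -0.28 (SE 0.11, unadjusted p = 0.0193, edgeR adjusted p = 0.358) in Low mice. Its means were 367 ± 35.5 CPM in Low Control, 304 ± 13.7 in Low Run, 389 ± 9.71 in High Control and 308 ± 13.0 in High Run mice.

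Of 7 genes of mitochondrial calcium uptake and release, 6 were positive in Low mice and 4 in High mice. Micu2, a gatekeeper of the mitochondrial uniporter, differed by 0.32 in Low mice (SE 0.13, unadjusted p = 0.0282, edgeR adjusted p = 0.358). Among 9 genes of store-operated entry and surface extrusion, the sodium-calcium exchanger Slc8a1 had the smallest interaction p of the 52, at 0.77 (SE 0.33, unadjusted p = 0.0329, edgeR adjusted p = 0.600), followed by the triad protein gene Sypl2 at -1.09 (SE 0.56, unadjusted p = 0.0707). The smallest p-values in High Control against Low Control were those of Camk2a at 0.48 (SE 0.25, unadjusted p = 0.0758) and Calm3 at 0.58 (SE 0.31, unadjusted p = 0.0821). In High Run against Low Run they were those of Micu3 at 0.24 (SE 0.13, unadjusted p = 0.0818) and S100a1 at -0.23 (SE 0.13, unadjusted p = 0.0978). The 8 store and pump partners had 0 genes under 0.05 in either running comparison.

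Among all tested genes, those whose log2 CPM followed a member most closely over the 15 mice differed between members. Ryr1 was followed by Plec (Pearson r 0.960), which encodes a very large cytoskeletal protein, and by Sugp2 (0.931). Cacna1s was followed by the store-operated entry sensor Stim1 (0.955), Itsn1 (0.936) and Kif3c (0.933), and Jph1 by Dcaf6 (0.952), Qrich1 (0.939) and Cog3 (0.934). Casq1 was followed by Gm12319 (0.971), Pgm1 (0.968) and 2310016D23Rik (0.960), and Pvalb by Rtn4 (0.965), Cib2 (0.949) and the skeletal actin gene Acta1 (0.948). Atp2a1 was followed by Nomo1 (0.912), Gm7049 (0.912) and Mier2 (0.900), and Atp2a2 by Xpo4 (0.878), Jak3 (0.858) and Endov (0.858). For the scarce members the nearest genes were Cpne2 (0.889), Ccdc136 (0.840) and A930003A15Rik (0.837) for Sln, D830026I12Rik (0.917), Gm7335 (0.889) and Gm7276 (0.883) for Casq2, and Yju2 (0.844), Lsm10 (0.822) and 2810410L24Rik (0.813) for Pln. These values are descriptions over mice that share groups and the libraries D9 and D62. Spearman's rho was lower for some, such as Stim1 (0.782) and Itsn1 (0.686) with Cacna1s and 2310016D23Rik (0.725) with Casq1. For others it was as high, such as Rtn4 with Pvalb (0.971). The genes nearest Casq2 were scarce, with means of 1.05 CPM for D830026I12Rik, 1.95 for Gm7335 and 0.559 for Gm7276.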

How the data were processed

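RNA from gastrocnemius of 15 mice was sequenced after poly(A) selection. The authors aligned reads to mm10 with STAR 2.7.9a and deposited raw counts per Ensembl gene (annotation build 100) of uniquely aligned, proper, same-strand pairs from featureCounts, without mitochondrial genes. They also deposited DESeq2 variance-stabilized values on a log2-like scale, used here only for the principal components and an alternative. The submitters' processing notes name Subread 2.0.3 and DESeq2 1.32.0, which differ from the versions in the study's methods. Counts were tested with edgeR 4.0.16 (R 4.3.3) by the quasi-likelihood F-test after filterByExpr and TMM, with 1 mean per group over all mice, Benjamini-Hochberg adjustment over the 16920 genes tested, and calls at an FDR of 0.1. DESeq2 1.42.0 and limma 3.58.1 (voom with sample weights) were alternatives. Only the edgeR, DESeq2 and voom fits of the Low and High running comparisons, and the permutation test, were tried on simulated data with known answers. CPM used TMM-scaled totals, and log2 CPM a prior count of 2. Levels between genes were divided by the union exon length of GENCODE M21 (GRCm38). Permutation tests drew 100000 resamples in SciPy and were two-sided. All 10 members were named, with the 2 smallest unadjusted p-values per comparison from the 52 wider calcium genes, the 3 nearest genes per member (1 of those of Ryr1 is not reported here), and the sums of marker lists. The members and lists were chosen with earlier results of these data known. Libraries of a group differed far beyond counting noise (chi-square per degree of freedom 15.7 to 191), so none was a duplicate. The labels give no batch, so none was modeled, and p-values of the group comparisons set each difference against the spread between mice.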

Additional observations from a re-analysis of the deposited data

Results flagged for a closer look

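Within groups of 4, Dixon's ratio at its 95% critical value was computed for 81 combinations of a group with a member, a marker sum or a ratio between members, and 5 lay beyond it. Chance alone flags about 1 in 20 groups. Among member levels, 1 was flagged, Pln in Low Control mouse D98 at 3.47 CPM (the other Low Control mice 2.24 to 2.39). Atp2a1 per Casq1, on the per-kb scale, was 40.2 in Low Control mouse D9 (others 8.93 to 12.4) and 32.2 in High Run mouse D62 (others 5.94 to 9.89), the 2 libraries that stood apart on the first principal component. Casq2 as a share of the 2 calsequestrin genes was 1.34% in Low Control mouse D8 (others 1.94% to 2.02%). The summed smooth muscle markers were 348 CPM in High Run mouse D53 (others 153 to 174). None of the 10 members had an interaction of frailty and running past an FDR of 0.1, and the lowest edgeR adjusted p was 0.600.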

How the results depend on the processing

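No member passed an FDR of 0.1 in a planned comparison, and 0 was also the count of called genes with RLE scaling, with length and GC offsets, with only the compared groups, at an FDR of 0.05, without D9 and D62, and after leaving out any single mouse. The count of called genes moved with 3 settings. Without a filter on low counts it was 86 for running in Low mice, 19 for running in High mice with 1 member (Sln), 4 for the interaction, 6 between running groups and 81 for the mean running difference with 1 member (Sln). DESeq2 gave 10, 15 and 106 for the 2 running comparisons and their mean, the last with 1 member (Sln), and voom gave 45 for running in High mice. The median of all genes shifted to 0.12 without a filter and 0.11 with DESeq2 for the interaction. For Sln, leaving out 1 mouse gave 2.04 to 2.95 in High mice and 0.49 to 1.64 in Low mice, all positive.

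The sign of small differences depended on single mice, and none of these passed a test. With limma voom, signs turned for Casq2 (-0.091) and Atp2a2 (0.032) in running in Low mice, for Cacna1s (0.039) and Jph1 (-0.025) in the interaction, for Jph1 (0.019) in High against Low controls, and for Cacna1s (0.055), Jph1 (-0.0058), Sln (0.0051) and Pln (-0.16) in High against Low runners. With length and GC offsets the sign turned for Casq2 (-0.013) in running in Low mice. Without D9 and D62 (chosen after seeing the data), signs turned for Casq2 (-0.18) in running in Low mice, for Atp2a2 (-0.013) in running in High mice, for Cacna1s (0.048) and Jph1 (-0.049) in the interaction, for Cacna1s (-0.019) and Jph1 (0.031) in High against Low controls, for Cacna1s (0.029), Jph1 (-0.018), Atp2a1 (-0.038) and Pln (-0.027) in High against Low runners, and for Atp2a2 (-0.034) in the mean running difference. In running in Low mice, leaving out 1 mouse turned the sign of Casq2 (-0.18 to 0.34), Atp2a2 (-0.27 to 0.085) and Pvalb (-0.063 to 0.36). In running in High mice, leaving out 1 mouse turned the sign of Ryr1 (-0.045 to 0.30), Atp2a2 (-0.013 to 0.27) and Pln (-0.037 to 0.47). In the interaction, leaving out 1 mouse turned the sign of Cacna1s (-0.20 to 0.024), Atp2a1 (-0.15 to 0.027) and Pln (-0.32 to 0.19). In High against Low controls, leaving out 1 mouse turned the sign of Cacna1s (-0.019 to 0.12), Jph1 (-0.20 to 0.031), Casq2 (-0.36 to 0.16), Atp2a1 (-0.0080 to 0.17) and Pln (-0.17 to 0.34). In High against Low runners, leaving out 1 mouse turned the sign of Cacna1s (-0.18 to 0.055), Jph1 (-0.018 to 0.19), Atp2a1 (-0.038 to 0.090), Atp2a2 (-0.19 to 0.17), Sln (-0.76 to 0.69) and Pln (-0.15 to 0.23). In the mean running difference, leaving out 1 mouse turned the sign of Casq1 (-0.21 to 0.069) and Atp2a2 (-0.056 to 0.12). The cause was not tested.

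The correlations with slow-fiber markers lost an adjusted p under 0.05 in many settings. With Myh7 alone r was 0.53 for Casq2 and 0.32 for Pln, with the deposited VST values 0.44 for Atp2a2, 0.52 for Casq2 and 0.62 for Pln, and without D9 and D62 0.56, 0.57 and 0.55. Leaving out 1 mouse gave 0.47 to 0.72 for Atp2a2, 0.54 to 0.62 for Casq2, 0.51 to 0.66 for Pln and 0.23 to 0.66 for Sln, and the Sln relation passed 0.05 in 1 of 15 cases. No paired analysis was possible because each mouse is in 1 group and carries its own number.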

Other observations

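Marker sums of other cell types are given as values beside the members. Macrophage markers (Adgre1, Cd68, Csf1r, Lyz2 and Ptprc) summed to 99.8 ± 23.2 CPM in Low Control, 139 ± 12.8 in Low Run, 78.3 ± 13.7 in High Control and 133 ± 44.6 in High Run mice (SD, n = 4, 4, 3 and 4), and all 4 Low Run mice, at 122 to 151, lay above all 4 Low Control mice, at 68.5 to 119. Adipocyte markers (Adipoq, Plin1, Cidec and Lep) summed to 79.4 ± 6.29 CPM in Low Control and 45.0 ± 8.33 in Low Run mice, without overlap, and to 72.7 ± 42.4 and 53.2 ± 11.1 in the High groups. Of all tested genes, 6.93% showed such a gap between Low Run and Low Control mice in either direction, and the marker sums were not tested. Fast-fiber markers (Myh1, Myh2, Myh4, Actn3, Tnnc2, Tnni2, Tnnt3 and Mylpf) were lowest in D62, and all 4 High Run mice, at 95316 to 111204, lay below all 3 High Control mice, at 117896 to 136456, as did Atp2a1. Of all tested genes, 7.07% did not overlap between these groups, 3.60% downward. The 5 skeletal muscle markers, which include Myh4, also separated them, at 90862 to 116749 against 123900 to 143564 CPM. Of the 8 fast-fiber markers, 7 were negative in High mice after running, with a median of -0.16 against 0.05 for all tested genes. Downward under an unadjusted edgeR p of 0.05 was 1 of them, beside 1.9% of all tested genes. Over all mice, fibroblast markers summed to 831 ± 194 CPM, endothelial to 208 ± 24.8, Schwann cell to 130 ± 52.1, smooth muscle to 181 ± 56.8, erythroid to 909.7 ± 948 and the 6 cardiac markers to 17.5 ± 7.97 (SD, n = 15). The part of these cells in the members' values was not tested.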
